A study of Bos taurus with 48 samples.

Results

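FLT3 (ENSBTAG00000018572), KDR (ENSBTAG00000000782) and PDGFC (ENSBTAG00000043959) are 3 growth factor signalling genes of the 25669 genes counted in bovine leukocytes. They were taken by their identifiers with earlier results of these data known, and the study had named all 3 from these same counts. Blood leukocytes came from 12 calves of a Continental breed, all of which were housed. In 6 calves (weaned) housing coincided with weaning, and 6 calves (control) were housed together with their dams. Each calf gave 1 library on d 0, taken before housing, and 1 on each of d 1, 2 and 7, so that 48 libraries fall into 8 groups of 6. Weaned calves were penned with other weaned calves and control calves with cows and calves, so that weaning and the make-up of the pens cannot be told apart. Both treatments shared the move indoors and the repeated sampling, so that a change from d 0 within one treatment is not that of weaning alone.

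FLT3 and KDR are receptor tyrosine kinases, which pair up when their ligand binds and then phosphorylate each other, and the signal runs on through adaptor proteins to small GTPases and to lipid kinases. FLT3, the receptor of FLT3 ligand, is known from blood progenitors and from dendritic cells, whose development depends on it. KDR is the main receptor of vascular endothelial growth factor A on endothelial cells and also marks early blood and vessel precursors. PDGFC is a ligand of the platelet-derived growth factor family. It is secreted in a latent form, is cut free by proteases, and acts mainly on PDGFRA, a receptor of fibroblasts and other mesenchymal cells. In the RefSeq order of genes on the ARS-UCD2.0 assembly, KIT and PDGFRA lie next to KDR on chromosome 6, FLT1 lies near FLT3 on chromosome 12, and PDGFC lies between GLRB and CTSO on chromosome 17. The counts were made on Btau4.0, and positions on that build are not given here.

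The study named FLT3 on d 1 and d 2, KDR on d 1 and in weaned calves on d 7, and PDGFC on d 2 from these same counts, so those comparisons are not independent evidence of a direction. The libraries held 1662995 to 4256011 counts in total, with a median of 3600161. A count of 3, taken as the smallest that can be told from none, corresponds to 0.687 to 2.04 CPM, which are counts per 1000000 counts of the library, with the library total scaled by the trimmed mean of M-values (TMM). This limit covers counting error only. The counts are not scaled to gene length, so levels are compared within a gene and not between genes. In blood samples of mixed cells, fewer cells of a type and less RNA per cell cannot be told apart.

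Calf labels were checked against the 60 genes that differed most between calves, chosen each time without the library tested. Of the 48 libraries, 43 were most like the other libraries of their own calf, with a mean correlation of 0.417 to 0.966. The other 5 were more like another calf. These are control calf 1755 on d 2, control calf 1763 on d 0, and weaned calf 1758 on d 0 and d 7 and weaned calf 1770 on d 7. On d 7 calves 1758 and 1770 were each most like the other, at 0.734 and 0.571 against 0.209 and 0.166 for their own calf, and both are weaned, so the values of that group do not depend on which calf each library belongs to. Some results that rest on these 5 libraries are given with and without them. Counts of calves above or below d 0 are given only with them. Defining markers of leukocytes, neutrophils, T cells, B cells and monocytes could not be looked up, because symbols were at hand for 643 genes only and none of those markers is among them. The labelled tissue was therefore not checked against its markers.

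FLT3 was detected in every library, with 3 to 65 counts per library and 1494 in total. Before housing, the weaned calves had 2.76, 7.93 and 13.3 CPM of FLT3 as their lowest, median and highest value, and the control calves 5.74, 9.05 and 12.2 CPM. On d 1 the weaned calves had 7.29, 13.1 and 16.2 CPM and the control calves 3.15, 5.57 and 11.7 CPM. On d 2 the values were 5.14, 10.8 and 15.8 CPM in weaned calves and 2.04, 4.39 and 8.66 CPM in control calves. On d 7 they were 3.20, 8.72 and 18.7 CPM and 4.09, 6.35 and 8.87 CPM. The treatments overlapped on every day, and 3, 4 and 3 of the 6 weaned calves lay above the highest control calf on d 1, 2 and 7, against 1 of 6 on d 0. Of 8 dendritic cell markers FLT3 itself was the only one that could be looked up, so whether such cells had a part in the FLT3 values was not tested.

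**Figure D1:**
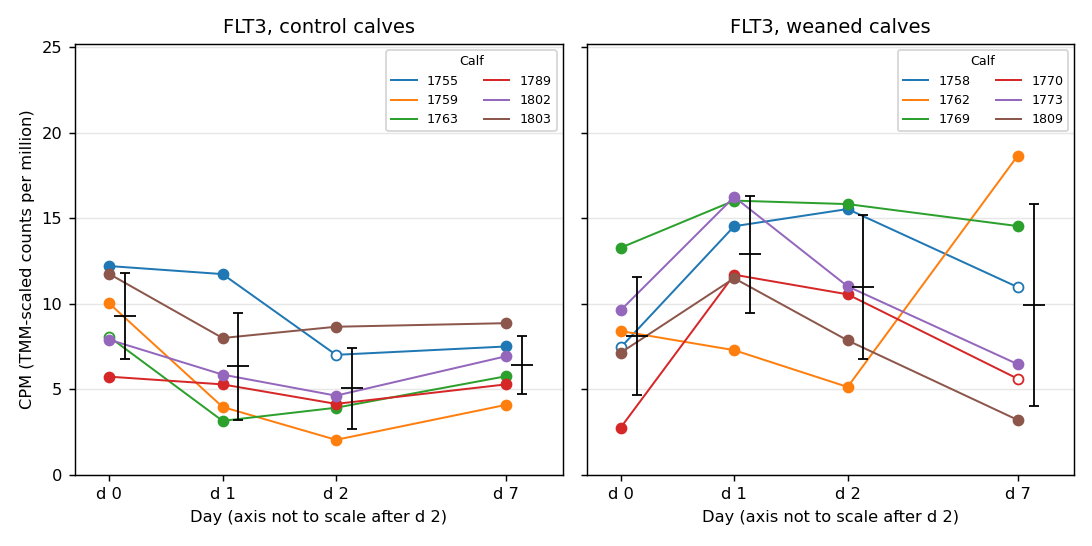
FLT3 in CPM (y axis) on each day (x axis) for the 6 control calves (left) and the 6 weaned calves (right), 1 line per calf, with the group mean ± SD in black (n = 6) and open circles for the 5 libraries that were more like another calf. Every control calf stands below its own d 0 value on d 1, 2 and 7, while weaned calf 1770 climbs from 2.76 CPM, the lowest d 0 value.

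Between weaned and control calves, the FLT3 difference was -0.18 on the log2 scale on d 0 (SE 0.31, unadjusted p = 0.554), 1.00 on d 1 (SE 0.31, unadjusted p = 0.00613), 1.06 on d 2 (SE 0.34, unadjusted p = 0.00647) and 0.60 on d 7 (SE 0.37, unadjusted p = 0.125) in edgeR's quasi-likelihood test. The adjusted p was 0.789, 0.959, 0.95 and 0.292 on the 4 days, so no FLT3 difference between treatments passed the test over all genes. A gene was called when it changed 2-fold or more and its adjusted p was under 0.05, and 0% of the genes tested were called in each of these 4 comparisons. At an unadjusted p under 0.05, 1.03% of all genes were higher in weaned calves on d 1 and 2.47% on d 2, and FLT3 is one of them on both days. With flowcell as a block the FLT3 difference was 1.66 on d 1 (SE 0.36) and 1.22 on d 2 (SE 0.34). Such a block compares the treatments only within flowcells that held both on that day, so the other libraries do not inform the difference. Without the library of control calf 1755, the FLT3 difference was 1.19 on d 2 (SE 0.37).

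Within calves, FLT3 stood below d 0 in 6 of 6 control calves at each of the 3 later samplings. The mean changes of log2(CPM + 1) were -0.55 ± 0.48, -0.82 ± 0.54 and -0.47 ± 0.37 (SD, n = 6), each with an exact two-sided permutation p of 0.03125, which is the smallest that 6 calves allow. Below d 0 in 6 of 6 control calves on each of the 3 days were 0.103% of all genes with at least 10 counts. These 3 changes share the d 0 libraries and are not independent of each other. Some of the falls cannot be told from counting error. Calf 1789 had 20 counts on d 0 and on d 1 (5.74 and 5.29 CPM), and calf 1755 had 47 and 43 counts. In weaned calves FLT3 stood above d 0 in 5, 5 and 4 of 6 calves, with mean changes of 0.67 ± 0.65, 0.42 ± 0.77 and 0.17 ± 0.78 (SD, n = 6) and exact p of 0.0625, 0.281 and 0.625. In the fits over all genes, the adjusted p of FLT3 was not below 0.05 in any of these 6 comparisons, and the smallest unadjusted p was 0.0148 in control calves on d 2 (log2 change -0.81, SE 0.30), where 3.61% of all genes were lower at an unadjusted p under 0.05, and 0.0451 in weaned calves on d 1 (log2 change 0.65, SE 0.30), where 6.07% were higher.

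The change of FLT3 from d 0, averaged over d 1, 2 and 7, ran from -1.37 to -0.20 in control calves and from -0.07 to 1.40 in weaned calves on the log2(CPM + 1) scale. The 2 treatments did not overlap, the difference was 1.03, and the exact permutation p was 0.00216, the smallest that 6 against 6 calves allow. Of all genes with at least 10 counts, 0.837% likewise lay without overlap and higher in weaned calves, and 18.9% had an exact p under 0.05 in that direction. The average includes d 1 and d 2, for which the study named FLT3 from these same counts. It is therefore not independent evidence of a direction, and FLT3 is not an unselected gene beside these shares. Without the 5 libraries the changes of 5 against 5 calves still did not overlap, at a difference of 0.95 (exact permutation p = 0.00794, the smallest that 5 against 5 calves allow). Fewer calves overlap less easily, and the share of all genes without overlap was not computed for 5 against 5. Weaned calf 1770 had the largest increase, 1.40, and leaving out each calf in turn gave 0.84 to 1.13. Day by day, the difference in change was 1.22 on d 1 and 1.24 on d 2 (both exact permutation p = 0.00649) and 0.64 on d 7 (exact permutation p = 0.0996), and 9.34% and 3.29% of all genes had an exact p under 0.05 in that direction on d 1 and d 2. Without the 5 libraries these differences of FLT3 were 1.06, 1.13 and 0.41 on d 1, 2 and 7 (exact permutation p = 0.0238, 0.0317 and 0.413). The level of FLT3 after housing, taken as the mean of the later days, differed by 0.79 (exact permutation p = 0.0130), as did 8.83% of all genes at an exact p under 0.05 and higher in weaned calves. In the fit over all genes with calf as a block, these interactions of FLT3 were 1.32 on d 1 (SE 0.35, adjusted p = 0.200), 1.32 on d 2 (SE 0.40, adjusted p = 0.505) and 0.70 on d 7 (SE 0.40, adjusted p = 0.197), so that none was called.

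**Figure D2:**
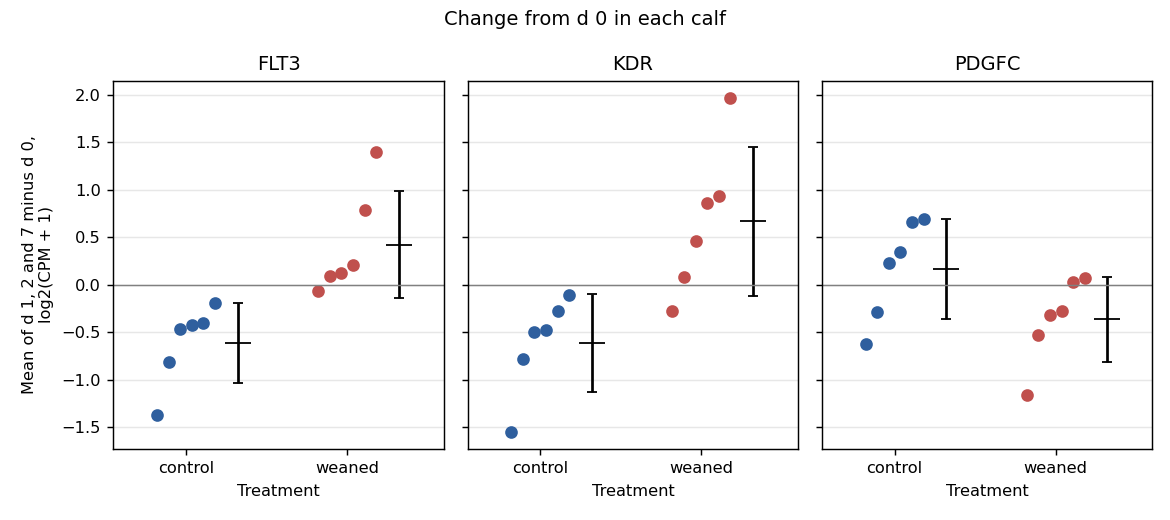
Mean of log2(CPM + 1) over d 1, 2 and 7 minus d 0 (y axis) for each calf (points) in both treatments (x axis), with the group mean ± SD in black (n = 6), for FLT3, KDR and PDGFC. For FLT3 the highest control calf is at -0.20 and the lowest weaned calf at -0.07. For KDR all 6 control calves lie below 0, and weaned calf 1758 is at 1.97.

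KDR had 2 to 87 counts per library and 1083 in total, and 1 calf held much of it. In 2 control libraries on d 2 its 2 counts lay below the limit of 3 counts. On d 0 the weaned calves had 2.08, 4.57 and 5.27 CPM of KDR as lowest, median and highest value, and the control calves 3.73, 7.22 and 10.0 CPM. On d 1 the weaned calves had 3.08, 5.36 and 20.4 CPM and the control calves 2.11, 4.29 and 5.53 CPM. On d 2 the values were 3.85, 5.78 and 16.0 CPM in weaned and 0.540, 5.06 and 8.10 CPM in control calves, and on d 7 they were 3.84, 6.31 and 21.7 CPM and 1.76, 6.30 and 7.27 CPM. The treatments overlapped on every day, and on d 7 their medians were almost equal.

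**Figure D3:**
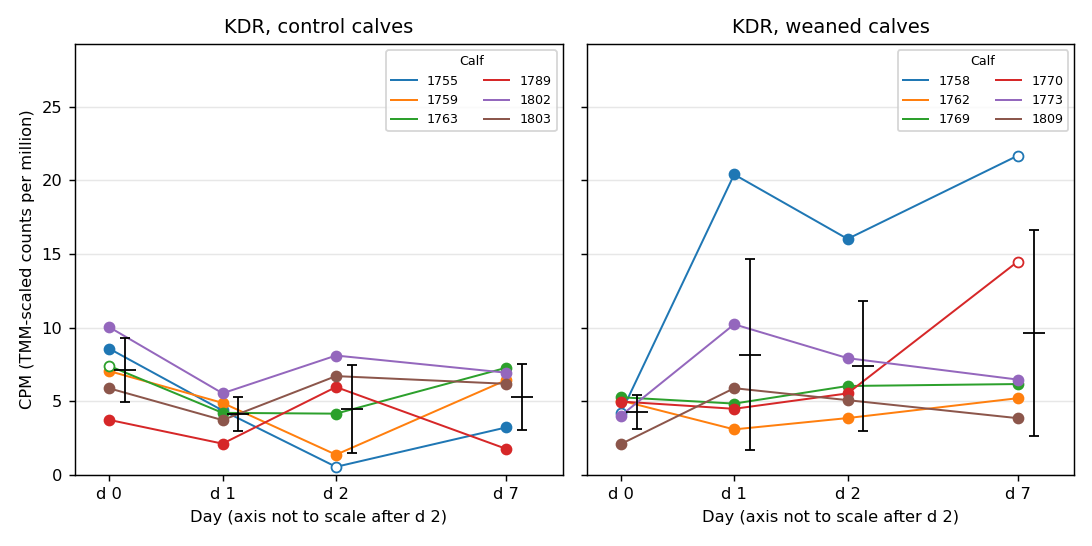
KDR in CPM (y axis) on each day (x axis) for the 6 control calves (left) and the 6 weaned calves (right), 1 line per calf, with the group mean ± SD in black (n = 6) and open circles for the 5 libraries that were more like another calf. Calf 1758 climbs from 14 counts on d 0 to 87, 67 and 79 counts, and calf 1770 joins it on d 7 with 49 counts.

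Weaned calf 1758 had 14, 87, 67 and 79 counts of KDR on d 0, 1, 2 and 7, which is 22.8% of all KDR counts. Its d 0 and d 7 libraries are among those that were more like another calf, but its d 1 and d 2 libraries are not. TEK, the receptor of the angiopoietins and the other endothelial marker that could be looked up, had 1, 14, 35 and 42 counts in calf 1758 on the 4 days. This was the lowest TEK count of the weaned calves on d 0, stood below the 29 counts of calf 1773 on d 1, and was the highest on d 2 and d 7. CPA3, a protease of mast cells, had 4, 18, 63 and 59 counts in calf 1758, which was likewise lowest of the weaned calves on d 0, below the 25 counts of calf 1773 on d 1 and highest on d 2 and d 7. IL5RA, the interleukin 5 receptor of eosinophils, had 32, 140, 260 and 52 counts in calf 1758, and control calves also reached high values, with 180 counts in calf 1755 on d 0 and 182 in calf 1763 on d 2. Of the 8 endothelial markers, KDR and TEK could be looked up, and TEK in CPM ran from 0.298 to 4.03 in weaned calves before housing, and then from 1.02 to 7.60 (d 1), from 1.27 to 8.37 (d 2) and from 0.961 to 11.5 (d 7). In control calves TEK reached 3.34, 4.37, 2.07 and 1.75 CPM on the same days, and it was at 0 in 1 library. Whether these cells had a part in the KDR values was not tested.

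KDR was lower in weaned than in control calves before housing, by a log2 difference of -0.73 (SE 0.28, unadjusted p = 0.0208, adjusted p = 0.624), and 4.13% of all genes were lower at an unadjusted p under 0.05. The exact permutation p of KDR on d 0 was 0.0195, and 2.01% of all genes were lower at an exact p under 0.05. Without the d 0 libraries of calves 1758 and 1763, KDR differed by -0.60 of log2(CPM + 1) on d 0 (exact permutation p = 0.0635). After housing the difference was positive, at 0.98 on d 1 (SE 0.43, unadjusted p = 0.0388), 0.66 on d 2 (SE 0.48, unadjusted p = 0.188) and 0.84 on d 7 (SE 0.44, unadjusted p = 0.0704), with adjusted p of 0.959, 0.95 and 0.224. Without calf 1758 the KDR difference was 0.45 on d 1 (SE 0.34), 0.29 on d 2 (SE 0.45) and 0.44 on d 7 (SE 0.39). Without control calf 1755 it was 0.45 on d 2 (SE 0.42). On d 7, without the libraries of calves 1758 and 1770 that were more like another calf, KDR differed by 0.02 (SE 0.37, unadjusted p = 0.968). The exact permutation p of KDR on d 1, 2 and 7 was 0.143, 0.193 and 0.201.

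Against d 0, KDR in weaned calves changed by 0.93 on d 1 (SE 0.42, unadjusted p = 0.0417), 0.79 on d 2 (SE 0.35, unadjusted p = 0.0397) and 1.16 on d 7 (SE 0.41, unadjusted p = 0.0130), and no adjusted p was below 0.05. At an unadjusted p under 0.05, 6.07%, 1.39% and 1.72% of all genes were higher than on d 0 on these days. KDR stood above d 0 in 3, 5 and 6 of 6 weaned calves (exact permutation p = 0.25, 0.156 and 0.03125), and 1.40% of all genes were above d 0 in 6 of 6 weaned calves on d 7. Some of these rises cannot be told from counting error. From d 0 to d 7, KDR went from 15 to 17 counts in calf 1762 and from 23 to 25 in calf 1769. Without calf 1758 the 3 KDR changes were 0.40, 0.40 and 0.74, and without the libraries of d 0 and d 7 that were more like another calf the change on d 7 was 0.33 (SE 0.33, unadjusted p = 0.328). In control calves KDR stood below d 0 in 6 of 6 calves on d 1, with changes from -0.83 to -0.45 of log2(CPM + 1) and an exact permutation p of 0.03125, and 1.26% of all genes did so. The fitted KDR change in control calves was -0.79 on d 1 (SE 0.29, unadjusted p = 0.0158, with 0.33% of all genes lower at an unadjusted p under 0.05), -0.59 on d 2 (SE 0.42) and -0.39 on d 7 (SE 0.33). The lowest KDR counts of the series, 2 each, were those of control calves 1755 and 1759 on d 2, and the library of calf 1759 was the shallowest of the 48. Without calf 1755 the KDR change on d 2 was -0.29 (SE 0.36), and without calf 1759 it was -0.47 (SE 0.45).

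The change of KDR from d 0, averaged over the later days, ran from -1.55 to -0.11 in control calves and from -0.28 to 1.97 in weaned calves, a difference of 1.28 on the log2(CPM + 1) scale (exact permutation p = 0.00649). This average includes d 1 and d 7, for which the study named KDR from these same counts, so it is not independent evidence of a direction. The difference in change on single days was 1.24 on d 1, 1.36 on d 2 and 1.25 on d 7 (exact permutation p = 0.00649, 0.0433 and 0.00433), and on d 7 18.6% of all genes had an exact p under 0.05 in that direction. All 6 control calves were below 0 over the later days, which 8.41% of all genes also showed, and 5 of 6 weaned calves were above 0. Without the 5 libraries the difference in the change of KDR was 0.85 over 5 against 5 calves (exact permutation p = 0.0238), and leaving out each calf in turn gave 1.02 to 1.47. On single days, without the 5 libraries, the KDR differences were 0.94, 0.69 and 0.86 on d 1, 2 and 7 (exact permutation p = 0.0238, 0.222 and 0.0317). The level after housing alone differed less clearly, by 0.67 (exact permutation p = 0.0714), and the d 0 difference of -0.61 on the same scale makes up the rest of the difference in change. The fitted interactions of KDR were 1.55 on d 1 (SE 0.44, adjusted p = 0.200), 1.45 on d 2 (SE 0.59, adjusted p = 0.505) and 1.44 on d 7 (SE 0.43, adjusted p = 0.0810), and 0% of all genes were called in these 3 fits. At an unadjusted p under 0.05, 13.7%, 4.57% and 21% of all genes had a higher interaction, and KDR was among them on all 3 days. On d 7 KDR was called by DESeq2's Wald test (1.45, adjusted p = 0.0362) and without a filter on low counts (1.44, adjusted p = 0.0486), in which 6.46% and 3.56% of all genes were called, and not in the other fits of that interaction. Without the calves that had such a library, the KDR interaction was 1.13 on d 1 (SE 0.40), 0.61 on d 2 (SE 0.47) and 0.97 on d 7 (SE 0.43).

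**Figure D4:**
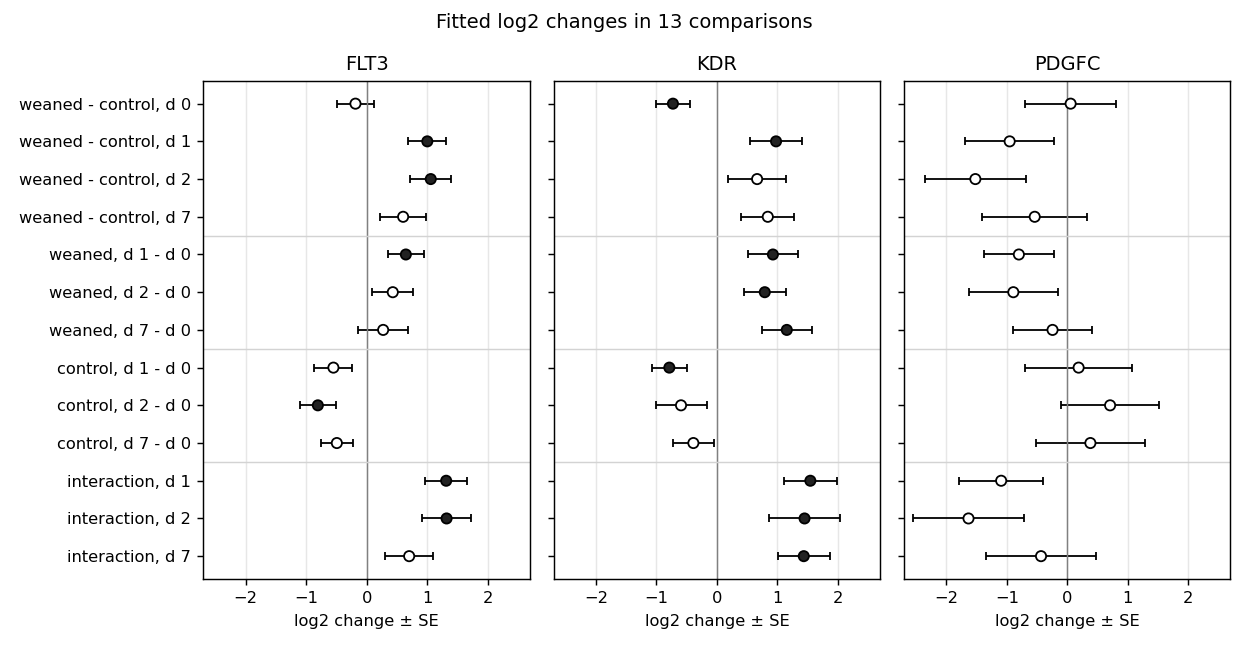
Fitted log2 change ± SE (x axis) of FLT3, KDR and PDGFC in the 13 comparisons (y axis), with filled circles for an unadjusted p under 0.05 in edgeR's quasi-likelihood test. FLT3 and KDR are positive between treatments on d 1, 2 and 7 and negative in control calves against d 0, and no PDGFC change has a filled circle. Comparisons that share libraries are not independent.

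PDGFC was close to the limit of detection, with 200 counts in all 48 libraries, 9 libraries at 0 and 24 counts at most. On d 0 its lowest, median and highest values were 0.553, 0.962 and 2.14 CPM in weaned calves and 0, 0.410 and 3.73 CPM in control calves. On d 2 they were 0, 0.502 and 2.41 CPM in weaned and 0, 1.24 and 4.84 CPM in control calves. The values on d 1 reached 1.40 CPM in weaned and 3.85 CPM in control calves, and those on d 7 reached 3.50 and 6.01 CPM. Most of it came from few animals, because calves 1763, 1789 and 1773 held 134 of the 200 counts (67%). Control calf 1763 had 8, 11, 21 and 24 counts on d 0, 1, 2 and 7, control calf 1789 had 13, 10, 11 and 3, and weaned calf 1773 had 8, 5, 7 and 13. Each of the other 9 calves had 2 to 13 counts over the 4 days together.

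**Figure D5:**
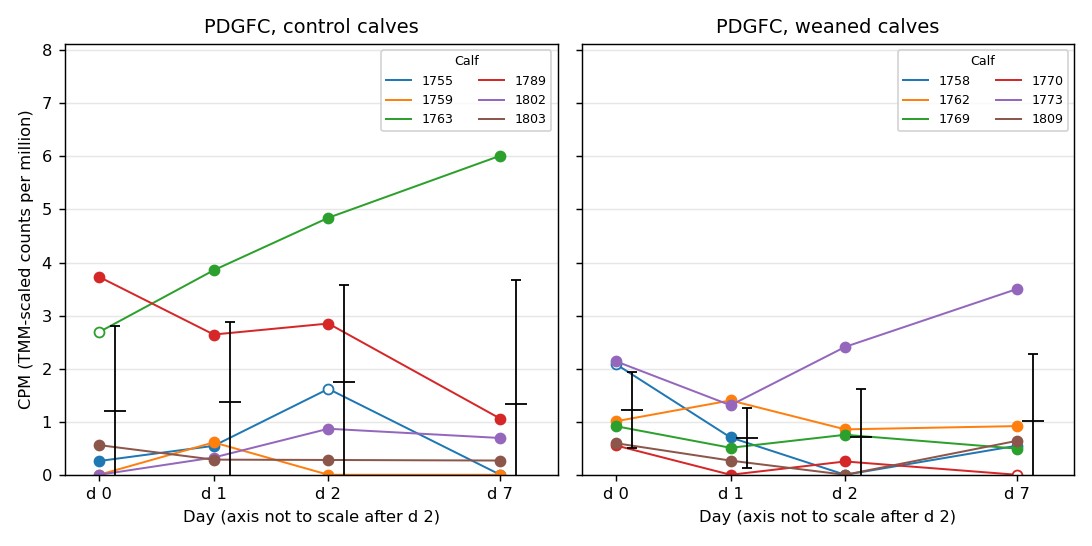
PDGFC in CPM (y axis) on each day (x axis) for the 6 control calves (left) and the 6 weaned calves (right), 1 line per calf, with the group mean ± SD in black (n = 6) and open circles for the 5 libraries that were more like another calf. Calves 1763 and 1789 stand out among the control calves and calf 1773 among the weaned calves, and the difference between calves is larger than that between days.

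After the group means were removed, calves accounted for an intraclass correlation of 0.76 in log2(CPM + 1) of PDGFC over the 48 libraries, against 0.37 for FLT3 and 0.32 for KDR. For PDGFC, then, libraries of the same calf were alike over the days, as a description of these 12 calves.

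No PDGFC difference passed a test over all genes. Between weaned and control calves it was 0.06 on d 0 (SE 0.75), -0.95 on d 1 (SE 0.74, unadjusted p = 0.218), -1.52 on d 2 (SE 0.84, unadjusted p = 0.0893, adjusted p = 0.95) and -0.54 on d 7 (SE 0.87). The study named PDGFC among the genes higher in weaned animals on d 2, which is the opposite direction to the d 2 difference here. The d 2 difference of PDGFC was -0.90 (SE 0.87) without control calf 1763 and -2.39 (SE 0.89, unadjusted p = 0.0174) without weaned calf 1773, and with flowcell as a block it was -0.92 (SE 1.04). On d 7 it was 1.20 (SE 0.90) without control calf 1763 and 0.41 (SE 1.12) with flowcell as a block, so its sign turned both without 1 calf and with another fit. In the blocked fit of d 7, calves 1770, 1789, 1802 and 1809 shared no flowcell with the other treatment and did not inform this difference. On the log2(CPM + 1) scale the d 7 difference of PDGFC was 0.01 (exact permutation p = 0.994). Against d 0 the PDGFC changes were -0.80, -0.89 and -0.24 in weaned calves and 0.19, 0.71 and 0.38 in control calves on d 1, 2 and 7, with unadjusted p of 0.19 to 0.84. In the change from d 0 on d 1, weaned and control calves differed by -0.58 of log2(CPM + 1) (exact permutation p = 0.0238), and 11% of all genes had an exact p under 0.05 in that direction. Without the calves that had such a library, this difference in PDGFC was -0.45 (exact permutation p = 0.0794). Over the later days together the PDGFC difference in change was -0.53 (exact permutation p = 0.0952).

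Of 7 fibroblast markers, 6 could be looked up (COL1A1, COL1A2, COL3A1, DCN, LUM and PDGFRB), and their summed level on d 2 ran from 0 to 39.7 CPM in weaned calves and from 0.578 to 238 CPM in control calves. On d 0 the sum ran from 3.03 to 336 CPM and from 4.61 to 134 CPM. On d 1 it ran from 0.802 to 235 CPM in weaned and from 0 to 189 CPM in control calves, and on d 7 from 0.493 to 51.1 and from 11.3 to 244 CPM. The d 2 difference of COL1A1, the main chain of type I collagen, was -2.38 (SE 0.97, unadjusted p = 0.0266, adjusted p = 0.95). The part of these cells in the PDGFC values was not tested. LUM was at 0 in 41 and DCN in 28 of the 48 libraries.

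Of 46 genes on the lists of receptors, ligands and shared downstream signalling, symbols were at hand for 6, because only genes on the study's own lists are named. These are FLT3 and KIT of 7 class III receptors and ligands, KDR of 10 genes of the VEGF family, PDGFRB and PDGFC of 6 genes of the PDGF family, and RASA1 of 23 downstream genes. FLT3 ligand, VEGFA, PDGFRA and the rest were not analysed here. Between treatments, 0 of the 6 genes were higher at an unadjusted p under 0.05 on d 0, 2 (FLT3 and KDR) on d 1, 1 (FLT3) on d 2 and 2 (KIT and RASA1) on d 7, and 1 (KDR) was lower on d 0. The median log2 difference over the 6 genes was -0.18, 0.34, 0.50 and 0.84 on d 0, 1, 2 and 7, beside -0.01, 0.00, 0.03 and 0.03 over all genes tested. These 6 genes could be named only because the study listed them as changed from these same counts, so their medians are a description of genes chosen that way and no evidence of a direction. On d 7, 17.6% of all genes were higher in weaned calves at that threshold.

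KIT, the stem cell factor receptor of progenitors and mast cells and the only one of 4 progenitor markers that could be looked up, had 10 to 125 counts per library. On d 7 it had 8.01, 14.5 and 27.7 CPM as lowest, median and highest value in weaned calves and 4.26, 6.67 and 16.4 CPM in control calves, a log2 difference of 0.99 (SE 0.36, adjusted p = 0.158). Against d 0, when control calves had 7.29, 17.6 and 24.9 CPM, KIT fell by 1.02 on the log2 scale in control calves on d 7 (SE 0.34, adjusted p = 0.0483), and 3.73% of all genes were called in that comparison. The KIT call was lost without calf 1755, 1759, 1763 or 1789, at an adjusted p of 0.0668 (without 1789) to 0.199 (without 1755) in the same test, and in the fit of all 48 libraries (adjusted p = 0.0764).

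RASA1, a GTPase-activating protein that damps the receptor signal, changed in control calves on d 7 by -0.94 (SE 0.21, adjusted p = 0.0222 in edgeR's quasi-likelihood test). It passed the adjusted p but not the 2-fold limit, so of the 6 genes KIT was the only one called in control calves on d 7. Without calf 1755, 1759 or 1763, the smallest adjusted p of any gene in the same test was 0.129, 0.095 and 0.0765, so RASA1 did not pass it. With the d 0 library of calf 1763 left out, 0 genes were called in that comparison. Between treatments on d 7, RASA1 differed by 0.86 (SE 0.32, adjusted p = 0.158). Weaned calf 1758 held 423 of the 1049 RASA1 counts of its group on d 7, at 116 CPM against a group median of 37.8 CPM. That library was one of those more like another calf, and no value of RASA1 without it is given here. The interaction of RASA1 on d 7 was 1.09 (SE 0.34), with an adjusted p of 0.0810. KDR had the same value, which is the smallest of any gene in this fit. Such ties come from the adjustment and show no link between the 2 genes. At an unadjusted p under 0.05, 21% of all genes had a higher interaction on d 7.

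PDGFRB, a PDGF receptor, was at or near 0, with 36 counts in total and 30 of the 48 libraries at 0. All 6 weaned calves on d 7 and all 6 control calves on d 0 had 0 counts, so no fold is given for it.

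Ordered by mean CPM, FLT3 was highest in weaned calves on d 1, at 12.9 ± 3.42 CPM (SD, n = 6), and lowest in control calves on d 2, at 5.07 ± 2.37 CPM. Between these came weaned d 2, weaned d 7, control d 0, weaned d 0, control d 7 and control d 1. KDR was highest in weaned calves on d 7, at 9.64 ± 6.98 CPM, followed by weaned d 1, weaned d 2, control d 0, control d 7, control d 2 and weaned d 0, and lowest in control calves on d 1, at 4.14 ± 1.17 CPM. PDGFC was highest in control calves on d 2, at 1.74 ± 1.83 CPM, and lowest in weaned calves on d 1, at 0.698 ± 0.562 CPM. In each of the 3 orders, every group differed from the next by less than the smaller of the SDs of that pair.

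Across the 48 libraries, the genes whose log2(CPM + 1) ran most like FLT3 were ENSBTAG00000016206 (Pearson r = 0.81), ENSBTAG00000033076 (0.78), ENSBTAG00000018517 (0.75), ENSBTAG00000007719 (0.74) and HNMT, a histamine-degrading enzyme (0.74). For KDR they were ENSBTAG00000017554 (0.64), ENSBTAG00000001600 (0.64), the glutamate receptor subunit GRIN3A (0.63), CPA3 (0.63) and ENSBTAG00000001160 (0.63). For PDGFC they were ENSBTAG00000005850 (0.62), ENSBTAG00000007617, ENSBTAG00000011121 (both 0.61), ENSBTAG00000022461 (0.59) and ENSBTAG00000031077 (0.58). They were taken from 11884 genes with at least 240 counts. FLT3 and KDR had r = 0.40 with each other, and PDGFC had -0.23 with FLT3 and -0.18 with KDR. These libraries share calves, days and depth, so the correlations are a description and carry no p.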

How the data were processed

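Libraries of short single reads were made from leukocyte mRNA. Per the labels and the methods of the study, the authors aligned reads to Btau4.0 with Bowtie 0.12.7, dropped reads with mismatches or several alignments, kept 1 read per genomic position, and counted reads per Ensembl gene with HTSeq 0.4.6p2. They deposited raw counts, without normalisation. Whether the counting used strand is not given in the sources used here, so reads of overlapping or antisense genes cannot be told apart, and removal of reads at the same position can lower the counts of abundant genes.

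edgeR 4.0.16 (R 4.3.3) served for the fits (TMM, at least 10 counts over the libraries of a fit, quasi-likelihood F-test, Benjamini-Hochberg adjustment over all genes). The 10 comparisons of 2 groups used 12 libraries each and the 3 interactions used 24 with calf as a block. SE is the log2 change divided by the square root of F. Values of single calves were compared on log2(CPM + 1) by exact two-sided permutation tests, with 924 relabellings of calves or 64 sign changes within calves. There were 45 such tests, whose p-values are not adjusted. Each treatment's d 0 libraries enter all of its changes. Same-numbered libraries were taken as 1 calf by their labels, although 5 were more like another calf. Their deviations from the group means, each later day against d 0, had mean correlations of 0.219 to 0.495 by treatment and day. Those of single calves ran from -0.510 to 0.872. Calves shared pens within a treatment, so p-values measure the spread between these calves and not between pens.

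The 3 genes, the lists and the named genes (the 3 genes, list genes with an unadjusted p under 0.05, at most 4 per comparison, and 5 neighbours of at least 240 counts per gene) were chosen with earlier results of these data known. TEK, CPA3 and IL5RA in calf 1758 and COL1A1 on d 2 were chosen after their values were seen. 1 further gene was left out of the downstream list and is not reported here. Symbols are those of human orthologs in the study's tables. Flowcells come from the study's lane table. Alternatives were RLE size factors, DESeq2 1.42.0, no filter, filterByExpr, exact tests, all 48 libraries in 1 fit, flowcell or calf as a block, and each calf left out. Leaving out the 5 libraries more like another calf was chosen after seeing the data. The fits were tested on simulated data. Python 3.11.15, numpy 2.4.6, pandas 2.3.3 and matplotlib 3.10.9 were used for the rest.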

Additional observations from a re-analysis of the deposited data

Results flagged for a closer look

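In 4 of the 24 groups of 6 values (3 genes, 2 treatments and 4 days), 1 calf stood apart from the others by Dixon's test at the 95% level, where chance alone gives about 1 in 20 for normally distributed values. These were KDR in weaned calf 1758 on d 2 (16.0 CPM, the others 3.85 to 7.92 CPM), PDGFC in control calf 1763 on d 7 (6.01 CPM, the others 0 to 1.06 CPM), and PDGFC in weaned calf 1773 on d 2 (2.41 CPM, the others 0 to 0.856 CPM) and on d 7 (3.50 CPM, the others 0 to 0.918 CPM). KDR in calf 1758 on d 1 and d 7 did not stand apart by this test, although it was the highest value on both days. The test used CPM without a logarithm, and in each PDGFC group flagged 5 of 6 libraries had 3 counts or fewer. The rate of 1 in 20 need not hold for such values.

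In 8 of 12 tests, the change of a gene from d 0 differed between weaned and control calves at an unadjusted exact permutation p under 0.05. Of all genes, 9.34% passed that test on d 1 as higher and 11% as lower in weaned calves, and 3.29% on d 2, 18.6% on d 7 and 18.9% over the later days together as higher. The 12 tests share their d 0 libraries, and the genes were chosen with earlier results of these data known. For FLT3 the differences of log2(CPM + 1) were 1.22 on d 1, 1.24 on d 2 and 1.03 over the later days together. For KDR they were 1.24 on d 1, 1.36 on d 2, 1.25 on d 7 and 1.28 over the later days together. For PDGFC the difference was -0.58 on d 1. With the filter on low counts, no interaction of these genes had an adjusted p under 0.05 over all genes in edgeR's quasi-likelihood test, and without it the d 7 interaction of KDR did (adjusted p = 0.0486).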

How the results depend on the processing

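A library held 3 to 65 counts of FLT3, 2 to 87 of KDR and 0 to 24 of PDGFC, so depth limits all values of PDGFC and the lowest of the others. In 306 of 314 alternative fits of the 3 genes other than those leaving out 1 calf, the direction and the side of the threshold were those given above. None of the 3 genes was called in the main fits, so a fit counts here when it keeps the sign and makes no call. The size of a difference does not enter. The d 7 difference of KDR between treatments counts as kept without the 5 libraries, although it all but vanished. PDGFC was not tested by filterByExpr, which removed it. PDGFC turned positive on d 7 between treatments with flowcell as a block (0.41), and without calves 1758 and 1770 both in weaned calves against d 0 (0.24) and in the interaction (0.12). Without the 5 libraries, these last values of PDGFC were 0.40 and 1.11. KDR was called in weaned calves on d 7 by the exact test with a common dispersion (1.16, adjusted p = 0.0470), which called 38 of 14026 genes. With tagwise dispersions it was not called. Its d 7 interaction was called by DESeq2 (1.45) and without a filter (1.44). The replicate block (calf) changed no call of the 3 genes, and without it none of their interactions was called. The cause of these differences was not tested.

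With 1 calf left out, PDGFC ran from -0.21 to 0.87 between treatments on d 0 and from -1.48 to 1.20 on d 7, from -0.95 to 0.10 in weaned and from -1.03 to 1.29 in control calves on d 7 against d 0, and from -1.18 to 0.45 in the d 7 interaction. FLT3 in weaned calves on d 7 ran from -0.0026 (without 1762) to 0.43. The later-day means between treatments ran from 0.41 to 0.81 for KDR, with an exact permutation p of 0.0303 without calf 1762 and 0.0390 without 1802, and from -0.49 to 0.010 (without 1763) for PDGFC. The PDGFC change ran from -0.69 (without 1789, exact permutation p = 0.0281) to -0.37.

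By the exact test, a common dispersion gave 68, 40, 75 and 865 genes between treatments on d 0, 1, 2 and 7, where the quasi-likelihood test called 0. It gave 64, 62 and 38 genes in weaned calves on d 1, 2 and 7 and 18 in control calves on d 2. With tagwise dispersions the counts were 1, 1 and 18 between treatments on d 1, 2 and 7, and 1 in weaned calves on d 1 and on d 7. DESeq2 called 28 genes between treatments on d 7, 1 in weaned calves on d 1 and 1 on d 7, and 4 and 950 in the interactions of d 1 and d 7, and without a filter the last was 625. The replicate block gave 2 genes in weaned calves on d 1. Of the 516 genes in control calves on d 7, all 48 libraries in 1 fit gave 1 and the fit without the library of calf 1763 on d 0 gave 0. With 1 calf left out this count ran from 0 (without 1755, 1759 or 1763) to 1086 (without 1803), the count between treatments on d 7 from 0 to 1137 (without 1809), and that of the d 1 interaction from 0 to 1 (without 1769).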
